A study of Mus musculus with 16 samples.

Results

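In 3T3-L1 preadipocytes, 1172 genomic regions had SETD5-V5 called at 6 h of differentiation and not at 0 h. They lay at chromatin that carried H3K4me1 but no detected H3K27ac. SETD5 is a SET-domain protein of the NCoR–HDAC3 corepressor complex. V5-tagged SETD5 was expressed from a retrovirus with a weak LTR promoter, and its binding was mapped by ChIP-seq with an antibody against the tag. The regions were chosen by 9 island lists, an island being a stretch of enriched reads called in 1 library. Each was a SETD5-V5 island of replicate A at 6 h, shorter than 20000 bp, that overlapped a replicate B island at 6 h and an H3K4me1 island at 0 h by at least 1 bp, that overlapped no SETD5-V5 island of either replicate at 0 h, and that overlapped no H3K27ac island of empty-vector cells in either replicate at 0 h or 48 h. They are called silent primed regions here, silent meaning only that no island was called in those 4 H3K27ac lists. Primed means only that an H3K4me1 island was called at 0 h.

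The 16 libraries came from 3T3-L1 cells, a mouse line that turns into fat cells when confluent cultures receive insulin, dexamethasone and isobutylmethylxanthine (MDI). H3K27ac was mapped in cells given an empty retrovirus and in cells given the SETD5-V5 retrovirus, untreated (0 h) and after 48 h of MDI, with 2 replicates each. SETD5-V5 was mapped at 0 h and 6 h of MDI with 2 replicates each, H3K4me1 at 0 h and 48 h with 1 library each, and endogenous SETD5 at 0 h and 6 h with 1 library each. The labels name no virus for the SETD5-V5 libraries of replicate A, name the SETD5-V5 virus for those of replicate B, and name it also for both H3K4me1 libraries, although the study describes H3K4me1 as a mark of ordinary 3T3-L1 cells. The study describes the replicates of H3K27ac and SETD5-V5 as biological. The files hold islands and no read counts, so the reads behind a single island are unknown. By the study's library totals, each SETD5-cell H3K27ac library was read more deeply than the empty-vector library of the same time and letter. Each 6 h SETD5-V5 library was also read more deeply than the 0 h one of its letter. The part of depth in the comparison of the viruses, and in the absence of SETD5-V5 at 0 h, was not tested.

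H3K4me1 marks enhancers. The study calls them primed where H3K4me1 stands without H3K27me3 and H3K27ac, and H3K27me3 was not mapped in these libraries. H3K27ac is added to enhancers in their active state. Corepressor complexes that hold HDAC3, a histone deacetylase, work against that acetylation. During adipogenesis C/EBPβ and C/EBPδ act first and the master regulators C/EBPα and PPARγ follow, and many enhancers of these genes pass from the primed to the active state.

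Of 35573 SETD5-V5 islands of replicate A at 6 h, 34648 were shorter than 20000 bp, 21752 of these were also found in replicate B, and 12748 of those were absent at 0 h. H3K4me1 was present at 0 h on 6715 of the 12748, of which 1172 were silent. A further 460 had H3K27ac in exactly 1 of the 4 empty-vector lists and lay just outside the rule. Islands of those 460 were weak, since between 88.2% and 97.2% of them scored below the median of their own list. At the length limit, the longest region was 18800 bp and 3 islands of 20000 bp or more met the rest of the rule, the shortest being 20600 bp. For comparison, 5014 regions with H3K4me1 had H3K27ac in both empty-vector replicates at 0 h or at 48 h (acetylated regions), and 2774 had neither H3K4me1 at 0 h nor H3K27ac (unmarked regions).

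The sequences below show DNA from within the SETD5-V5 islands, to give the motifs searched in their context. For 8 named regions, the 200 bases with the most matches to 7 consensus motifs are given, on the plus strand of mm9 (NCBIM37). Capitals mark the matches, found on either strand. The motifs were TGANTCA for AP-1, TTGCNNAA for C/EBP, GGAATG for TEAD, TGACGTCA for CREB, ACANNNTGT for the core of the glucocorticoid receptor site, CAGCTG for an E-box and TGTGGT for RUNX. No pair of these motifs is identical, but single matches may share bases, as the RUNX, E-box and TEAD matches near Cd47 do. The first 4 windows come from the highest-scoring silent primed regions, which lie at Tmem71, Epb4.1l2, Tnni3k and Cd47.
Tmem71, chr15:66366721-66366920: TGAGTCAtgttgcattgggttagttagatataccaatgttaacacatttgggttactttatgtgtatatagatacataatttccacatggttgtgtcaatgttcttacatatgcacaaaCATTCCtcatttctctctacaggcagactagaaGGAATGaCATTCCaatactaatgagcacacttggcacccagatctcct
Epb4.1l2, chr10:25119835-25120034: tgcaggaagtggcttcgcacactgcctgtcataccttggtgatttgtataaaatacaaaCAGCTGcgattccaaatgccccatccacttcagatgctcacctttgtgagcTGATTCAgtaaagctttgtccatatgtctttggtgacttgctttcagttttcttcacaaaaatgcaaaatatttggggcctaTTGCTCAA
Tnni3k, chr3:154719600-154719799: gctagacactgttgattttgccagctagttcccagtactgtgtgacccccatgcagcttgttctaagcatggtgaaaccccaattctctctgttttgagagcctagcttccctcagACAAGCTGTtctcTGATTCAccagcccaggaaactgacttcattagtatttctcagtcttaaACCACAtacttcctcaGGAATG
Cd47, chr16:49882092-49882291: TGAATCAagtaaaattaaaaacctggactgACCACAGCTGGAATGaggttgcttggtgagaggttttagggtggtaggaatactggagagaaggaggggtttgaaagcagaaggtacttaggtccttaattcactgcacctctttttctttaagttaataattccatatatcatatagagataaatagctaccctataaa
The next 4 come from the strongest region with endogenous SETD5 (Coro6), one acetylated in SETD5 cells at 48 h but not at 0 h (Ank3), one acetylated in every SETD5-cell list (Foxa1) and one that lost H3K4me1 by 48 h (Fam105b).
Coro6, chr11:77274990-77275189: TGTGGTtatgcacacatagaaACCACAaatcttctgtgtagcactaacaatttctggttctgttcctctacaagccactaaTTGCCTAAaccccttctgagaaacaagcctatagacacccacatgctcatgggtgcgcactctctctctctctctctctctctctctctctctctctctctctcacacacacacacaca
Ank3, chr10:69050626-69050825: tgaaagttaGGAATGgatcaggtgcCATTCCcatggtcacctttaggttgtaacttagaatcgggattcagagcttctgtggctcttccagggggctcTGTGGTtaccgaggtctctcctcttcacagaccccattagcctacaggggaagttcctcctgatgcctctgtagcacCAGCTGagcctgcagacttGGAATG
Foxa1, chr12:58611042-58611241: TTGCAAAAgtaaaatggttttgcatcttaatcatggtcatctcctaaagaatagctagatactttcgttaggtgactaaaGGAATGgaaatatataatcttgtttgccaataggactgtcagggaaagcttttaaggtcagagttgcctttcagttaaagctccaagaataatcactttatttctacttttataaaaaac
Fam105b, chr15:27578088-27578287: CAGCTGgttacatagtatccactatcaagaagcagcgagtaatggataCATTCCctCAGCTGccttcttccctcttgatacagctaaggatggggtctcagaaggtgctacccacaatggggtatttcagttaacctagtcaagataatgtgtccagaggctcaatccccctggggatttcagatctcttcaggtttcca
Each of the 4 highest-scoring windows held 1 AP-1 match, and no AP-1 match was in the other 4. No CREB match was in any of the 8. These windows were picked for their matches and not for enrichment, and island calls do not place SETD5-V5 on particular bases.

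Over all silent primed regions, matches in the central 600 bases were close to those of the SETD5-V5 islands at large. An AP-1 match was found in 29.6% of the 1172 regions, against 23.7% of the 34648 islands of replicate A at 6 h, 26.9% of acetylated regions and 30.6% of unmarked regions. C/EBP matches were in 27.6% of silent primed regions and in 26.5% of all islands. TEAD matches were in 28.8% and 30.2%, and RUNX matches in 41.9% and 38.4%. The glucocorticoid receptor core was in 21.4% and 19.5%, the E-box in 25.7% and 25.2%, and the CREB site in 0.683% and 0.612%. Median GC content was 43.2% in silent primed regions, 44.0% in all islands and 40.3% in unmarked regions. Over whole islands, AP-1 matches numbered 0.479 per kb in silent primed regions and 0.393 per kb in all islands. H3K4me1 islands that were silent and had no SETD5-V5 in any list were richer in GC, with a median of 47.7%, and held an AP-1 match in 20.6% of their windows. The part of base composition in these differences was not tested.

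Silent primed regions were of ordinary size and strength among the SETD5-V5 islands. Their median length was 3600 bp, with the middle 50% between 2400 and 5000 bp, and all islands had the same median. Their median score, taken to be the island caller's measure of enrichment, was 57.9, and 52.4% of all replicate A islands scored higher. How far the score rises with island length was not tested. Acetylated regions were longer and scored higher, with medians of 4400 bp and 90.3, and unmarked regions were shorter and scored lower, with medians of 3200 bp and 49.1. The H3K4me1 island within a silent primed region was short. Its median length was 1800 bp, it covered a median of 43.8% of the SETD5-V5 island, and 55.8% of regions held the H3K4me1 island whole.

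At 48 h of MDI, 777 of 1172 silent primed regions (66.3%, exact 95% interval 63.5 to 69.0%) overlapped an H3K4me1 island. The share was 58.1% for all SETD5-V5 islands, which, unlike silent primed regions, were not required to have the mark at 0 h. It was 36.9% for silent primed regions when 50% overlap was required and 37.7% with H3K4me1 islands at or above the median score. The share was 80.0% for acetylated regions, 70.7% for regions in 1 empty-vector list and 20.2% for unmarked regions. Intervals cover counting error only, and with 1 H3K4me1 library per time no test was made. Where both times had an island, the one with the longest overlap had a median length of 2000 bp at 0 h and 2200 bp at 48 h. The 48 h length was longer in 436 regions, shorter in 291 and equal in 50. The island was picked separately at each time, so the lengths need not belong to the same site. The 395 regions that no longer had an island started from shorter H3K4me1 islands, with a median of 1600 bp, and from lower scores. Of the 0 h list, 69.5% scored above their median, against 50.4% above the median of those that stayed.

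**Figure D1:**
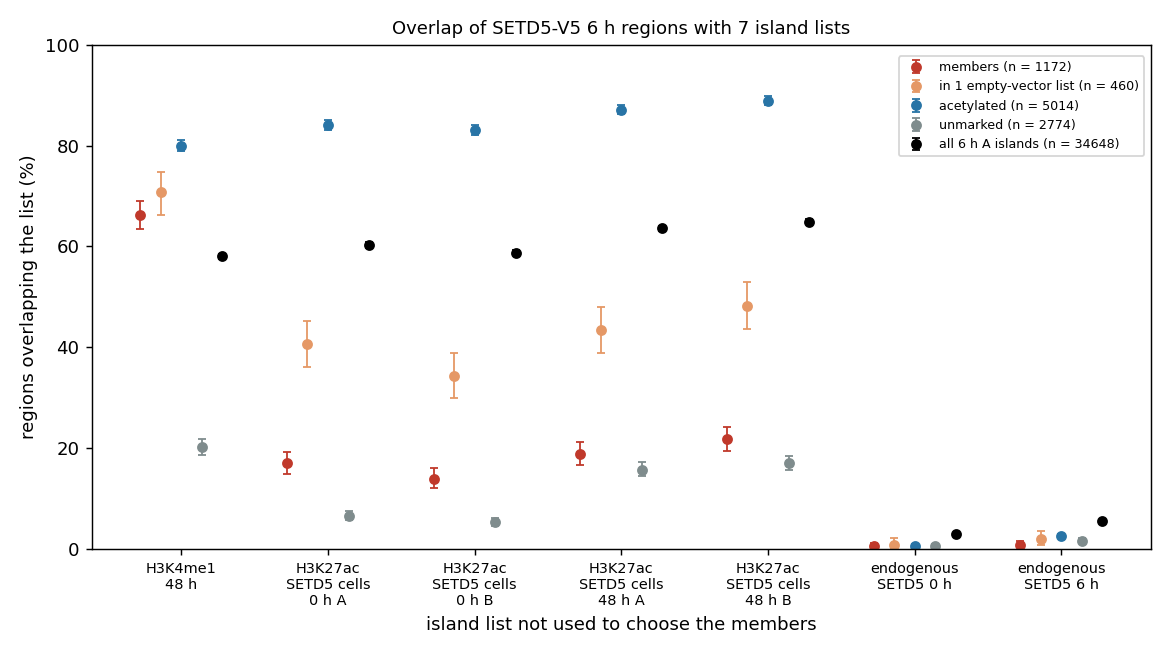
Share of regions (%) overlapping each of the 7 island lists that the choice of regions did not use, with exact 95% binomial intervals (counting error only). Silent primed regions (red, members) lay at 66.3% for H3K4me1 at 48 h and between 14.0% and 21.8% for H3K27ac in SETD5 cells, below all 6 h islands (black) in each H3K27ac list.

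Among H3K4me1 islands without H3K27ac, the share still marked at 48 h was higher at silent primed regions than where no SETD5-V5 was called. Of the 17058 H3K4me1 islands at 0 h without empty-vector H3K27ac, 1234 overlapped a silent primed region and 63.7% of these had an island at 48 h. Over all 50276 H3K4me1 islands at 0 h, acetylated or not, the share was 66.8%. Of 10374 silent ones that overlapped no SETD5-V5 island in any of the 4 lists, 42.9% had one. The rest of the 17058 overlapped SETD5-V5 islands other than silent primed regions and were not read apart. Over all 17058 the share was 51.3%. Whether the higher share was particular to silent primed regions was not tested. The islands at silent primed regions also began stronger, since 59.5% of the 0 h list scored above their median, against 70.1% for those without SETD5-V5. With the 0 h list split into 4 equal classes of score, the shares in the lowest class were 45.3% and 28.8%, in the next 59.2% and 43.2%, in the next 77.4% and 62.1%, and in the highest 95.0% and 85.6%. By length, the shares were 51.6% and 37.4% for islands up to 1000 bp, 58.5% and 39.0% for those of over 1000 to 2000 bp, and 75.8% and 55.7% for longer ones. The islands at silent primed regions had the higher share in each of these classes. The score classes were added after the data were seen, and with 1 library per time these are values side by side, without a test.

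**Figure D2:**
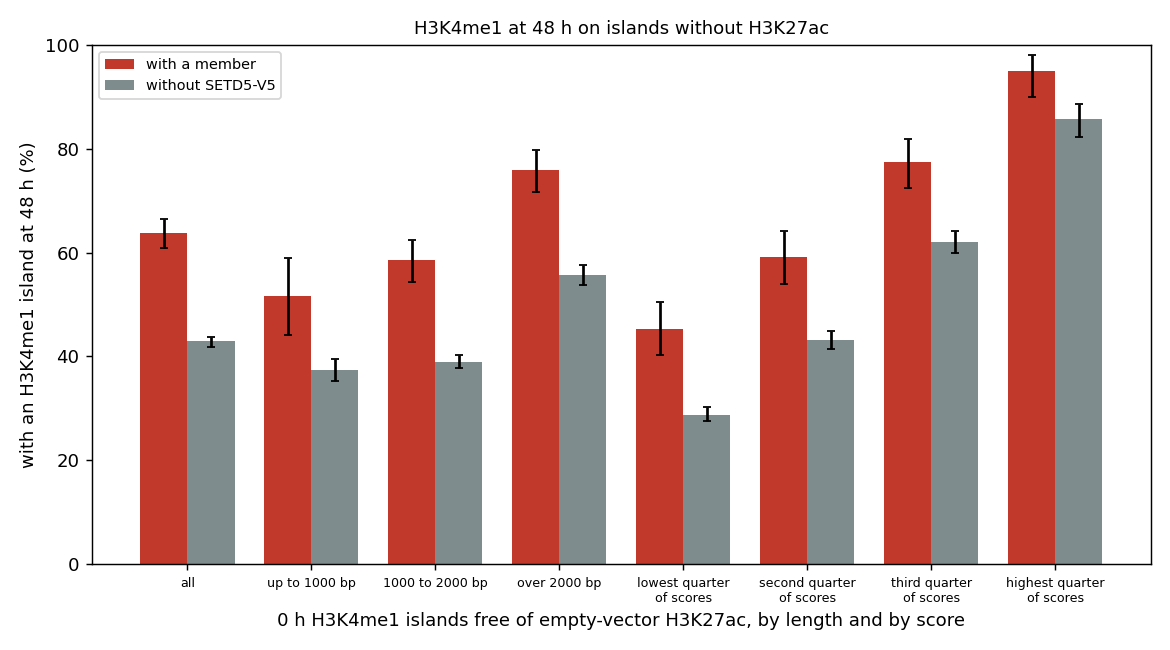
Share (%) of 0 h H3K4me1 islands without empty-vector H3K27ac that overlapped an H3K4me1 island at 48 h, in all and by length and score at 0 h, with exact 95% binomial intervals. Islands that overlapped a silent primed region (red, 63.7% in all) were above islands without SETD5-V5 (grey, 42.9% in all) in each class.

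H3K27ac was called at part of the silent primed regions in cells that carried the SETD5-V5 virus, so they were silent by the lists of empty-vector cells and not in every library. At 0 h, 199 regions (17.0%) had an H3K27ac island in replicate A and 164 (14.0%) in replicate B, where all SETD5-V5 islands had 60.3% and 58.8%. At 48 h, 222 regions (18.9%) had one in replicate A and 256 (21.8%) in replicate B, where all islands had 63.6% and 64.9%. The mean was 15.5% ± 2.11 (SD, n = 2) at 0 h and 20.4% ± 2.05 (SD, n = 2) at 48 h. Both 48 h values were above both 0 h values. The difference was 4.91 percentage points, with p = 0.333 by an exact two-sided permutation test over 2 against 2 libraries, which is the smallest p that this design allows. The gain was uneven between replicates. The rise was not particular to silent primed regions, since all SETD5-V5 islands had means of 59.6% at 0 h and 64.3% at 48 h. Acetylated regions had means of 83.6% at 0 h and 88.0% at 48 h, and unmarked regions 6.00% and 16.4%.

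Few silent primed regions had the mark in the same way in all SETD5-cell libraries. No H3K27ac island was found at 722 regions (61.6%), exactly 1 list had one at 181, and all 4 lists had one at 31 (2.65%). Both replicates at 48 h and neither at 0 h had one at 105 regions (8.96%), and the opposite pattern, both at 0 h and neither at 48 h, was found at 58 (4.95%). The islands were weak. Between 91.4% and 98.0% of them scored below the median of their list, and their median length was 1600 to 2000 bp. H3K4me1 at 48 h was on 66.9% of regions without H3K27ac in SETD5 cells and on 65.3% of those with 1 or more islands. Regions with H3K4me1 at 48 h and no H3K27ac in any of the 8 lists numbered 483, or 41.2%.

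**Figure D3:**
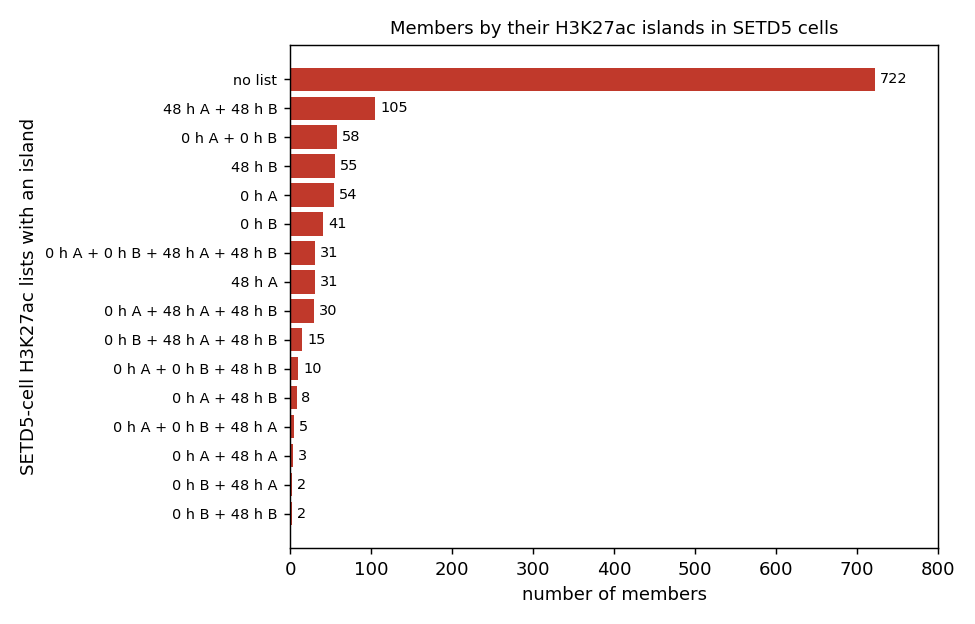
Number of silent primed regions (x axis) with each combination of H3K27ac islands in the 4 SETD5-cell lists (y axis, time and replicate). The bars show 722 regions with no island, 105 with islands in both 48 h lists only, 58 in both 0 h lists only and 31 in all 4.

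The rule sets empty-vector H3K27ac to zero, so the viruses were also read in lists that the choice did not use. Regions were chosen with the empty-vector lists of 1 replicate and read in the 48 h lists of the other. Of 1443 regions chosen with replicate A, 11.9% had H3K27ac in replicate B of empty-vector cells and 28.3% in replicate B of SETD5 cells. Of 1411 chosen with replicate B, 8.50% and 22.7% had it in replicate A. Both SETD5 values were above both empty-vector values. The means were 10.2% ± 2.41 and 25.5% ± 3.96 (SD, n = 2), a difference of 15.3 percentage points, with p = 0.333 by the exact permutation test, again the smallest possible. The 2 values of each virus came from different sets of regions, so this p is not a test of the viruses. The SETD5-cell lists were longer, with 39068 and 39451 islands at 48 h against 31292 and 33131. With every H3K27ac list held to its 31292 highest-scoring islands, the difference was 4.47 percentage points. The choice itself was one-sided, since it asked for silence in empty-vector cells only. With the reverse choice, made after the data were seen, of regions without H3K27ac in the SETD5-cell lists of 1 replicate, the direction turned, with 14.4% in empty-vector cells and 9.96% in SETD5 cells in the other replicate. With both viruses required to be silent in 1 replicate, the means were 6.13% and 6.73%, and the replicates differed in direction. With no choice on H3K27ac, they were 64.0% and 73.0%. The sign of the difference at silent regions thus followed which lists chose them. At 0 h, before MDI, SETD5 cells were higher under the first choice, by 8.80 and 11.5 points, or by 5.54 and 1.84 points with lists of equal number.

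Endogenous SETD5 was seldom called at these regions. At 6 h, 11 of 1172 (0.939%) overlapped an island, against 5.53% of all SETD5-V5 islands. At 0 h 7 did (0.597%), against 3.08%. The other regions without a SETD5-V5 island at 0 h were low too. At 6 h the shares were 2.59% (acetylated), 1.96% (in 1 empty-vector list) and 1.62% (unmarked). At 0 h they were 0.738%, 0.870% and 0.613%. The endogenous lists were small, with 3293 islands at 6 h and 2132 at 0 h. The strongest of the 11 lay at Coro6, which encodes an actin-binding coronin. This region, chr11:77273601-77280800, was centred 0.137 kb upstream of a start, and its endogenous island at 6 h was 6200 bp long. The other named ones lay in introns of Hsd17b12, an enzyme of fatty acid elongation (chr2:93961201-93967800), and Arhgap19 (chr19:41870401-41874600). All 3 had H3K4me1 at 48 h, with islands of 5400, 3400 and 3000 bp, and none had H3K27ac in SETD5 cells.

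The regions with the highest SETD5-V5 scores were long and mostly intronic. The first, chr15:66365201-66374000 in Tmem71, was 8800 bp long with a score of 378, and 5.32% of all replicate A islands scored higher. Its longest-overlapping H3K4me1 island was 1400 bp at 0 h and 4600 bp at 48 h, and no H3K27ac was called in SETD5 cells. The second, chr10:25111801-25123400, lay in Epb4.1l2, a membrane skeleton gene, and had H3K27ac in SETD5 cells in replicate A at 0 h (1600 bp) and in both replicates at 48 h (800 and 2000 bp). The third, chr3:154714601-154723200, was centred 0.530 kb upstream of a start of Tnni3k, a cardiac kinase. It had a 3200 bp H3K4me1 island at 0 h and none at 48 h, with H3K27ac in SETD5 cells in replicate B at 0 h and replicate A at 48 h. The fourth, chr16:49876201-49894200 in Cd47, the "do not eat me" signal for macrophages, was 18000 bp long. It had H3K27ac in both 48 h SETD5-cell lists (1400 and 1600 bp) and neither 0 h list. Its longest-overlapping H3K4me1 island was 2600 bp at 0 h and 800 bp at 48 h. The fifth, chr12:83397601-83411600 in Sipa1l1, a Rap GTPase-activating protein, had H3K4me1 islands of 2400 bp at 0 h and 2200 bp at 48 h. It had no H3K27ac in SETD5 cells. Thus 4 of these 5 were marked by H3K4me1 at 48 h and 3 had H3K27ac in at least 1 SETD5-cell list.

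Among regions with H3K27ac in both SETD5-cell replicates at 48 h and neither at 0 h, the strongest after Cd47 were in introns of Ank3, which encodes ankyrin-G (chr10:69037601-69052400), and Bcat1, a branched-chain amino acid transaminase (chr6:145000201-145019000). At Ank3 the islands were 1000 and 2200 bp long, and at Bcat1 1600 and 3600 bp. Both had H3K4me1 at 48 h, with islands of 2200 and 2800 bp. The strongest regions with H3K27ac in all 4 SETD5-cell lists lay 35.8 kb from a start of Foxa1, a pioneer factor of endoderm (chr12:58609401-58613200), in Etv6, an ETS-family repressor (chr6:134090801-134104800), and 93.5 kb from Camk2d, a calmodulin-dependent kinase (chr3:126201801-126209600). H3K4me1 was found at 48 h at the Etv6 region only. The strongest regions without H3K4me1 at 48 h were the Tnni3k region, one 18.2 kb from Fam105b (chr15:27570001-27587200) and one 65.5 kb from 2610203C20Rik (chr9:41319801-41326800).

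Few silent primed regions lay at promoters. By the position of the island centre, 631 (53.8%) were intronic, 498 (42.5%) intergenic, 20 (1.71%) exonic and 23 (1.96%) at promoters, the last being 1000 bp upstream to 100 bp downstream of any annotated start. Of all SETD5-V5 islands, 48.7% were intronic, 37.9% intergenic and 8.77% at promoters, and 5.66% of acetylated regions were at promoters. With promoters taken as 2500 bp either side of a start, they held 7.17% of silent primed regions and 24.0% of all islands. The median distance to the nearest protein-coding start was 34183 bp, against 19781 bp for all islands, 30738 bp for acetylated and 34043 bp for unmarked regions. The median gap to the closest empty-vector H3K27ac island of any of the 4 lists was 8400 bp, 112 regions (9.56%) were within 1000 bp of one, and 29 (2.47%) were more than 100000 bp from any.

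A few large genes held many regions. The 1172 regions had 871 different nearest protein-coding genes, of which 677 were nearest to 1 region and 61 to 3 or more. Foxp1, a forkhead repressor, had most, with 12 regions over 684 kb of chromosome 6, 6 of them inside the gene. H3K4me1 was called at 48 h at 11 of the 12, and H3K27ac in 1 or more SETD5-cell lists at 6. The strongest, chr6:99041001-99058400, was 17400 bp long with a score of 271, and it had no H3K27ac in SETD5 cells. Its longest-overlapping H3K4me1 island was 2200 bp at 0 h and 4000 bp at 48 h, but these lay at different positions within it. Sox5, a SOX-family factor of cartilage and neurons, held 8 regions, all inside the gene, all with H3K4me1 at 48 h and none with H3K27ac in SETD5 cells. Skap2, an adaptor of Src-family kinases, Prickle2, a planar cell polarity gene, and Cacna1c, a calcium channel subunit, had 6 each. H3K4me1 was called at 48 h at 5, 5 and 4 of them, and H3K27ac in SETD5 cells at 1, 3 and 2. Some neighbouring regions shared a 0 h H3K4me1 island, as at Prickle2 (chr6:92374001-92379800) and Skap2 (chr6:52027201-52028800). The counts are thus of SETD5-V5 islands and not of separate sites. All 5 genes are on chromosome 6.

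**Figure D4:**
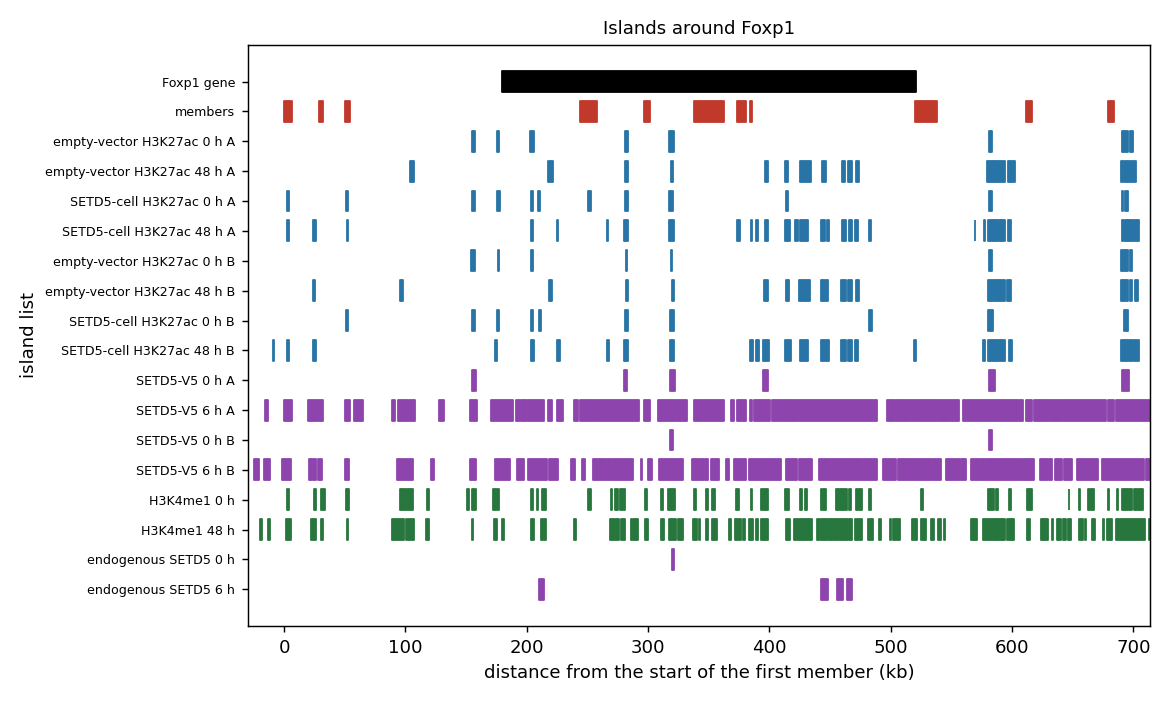
Islands of all 16 lists around Foxp1, as distance (kb) from the start of the first silent primed region, with the gene in black and the 12 regions (members) in red. The map holds 49 SETD5-V5 islands of replicate A at 6 h, 6 at 0 h, 18 empty-vector H3K27ac islands of replicate A at 48 h and 92 H3K4me1 islands at 48 h.

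Chromosome 6 held 190 of the 1172 regions (16.2%), or 1.27 per Mb, and chromosomes 19 and 15 had 1.12 and 1.07 per Mb. Chromosome 7 had 0.177 per Mb, and chromosome X held 2 regions, 0.0120 per Mb. These chromosomes also differed in the H3K4me1 list, with 38.1 islands per Mb on chromosome 6, 41.0 on chromosome 19 and 34.2 on chromosome 15, but 11.8 on chromosome 7 and 2.11 on chromosome X at 0 h. Empty-vector H3K27ac of replicate A at 0 h varied less, with 13.2, 17.8, 17.8, 11.6 and 6.67 islands per Mb on the same chromosomes. Chromosome 6 also held 16.4% of the silent H3K4me1 islands, so that 7.61% of its silent H3K4me1 islands overlapped a silent primed region, against 6.36% on chromosome 7 and 9.27% on chromosome 15. Other chromosomes departed from this. Chromosomes 11 and 5 had 26.0 and 24.0 H3K4me1 islands but 0.213 and 0.328 silent primed regions per Mb, while chromosome 3 had 13.0 and 0.426. Among autosomes the share of silent H3K4me1 islands that overlapped a silent primed region ran from 3.03% on chromosome 11 to 12.4% on chromosome 3, and it was 2.15% on chromosome X. The part of H3K4me1 island density in the results below was not tested. On the 12 chromosomes with under 20 H3K4me1 islands per Mb, a division made after the data were seen, 426 regions had H3K4me1 at 48 h in 56.1% and H3K27ac in SETD5 cells at 48 h in 25.8% and 28.9%. On the other 8 chromosomes, 746 regions had them in 72.1%, 15.0% and 17.8%. All SETD5-V5 islands moved the same way, with H3K4me1 at 48 h on 48.2% and 68.1%.

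**Figure D5:**
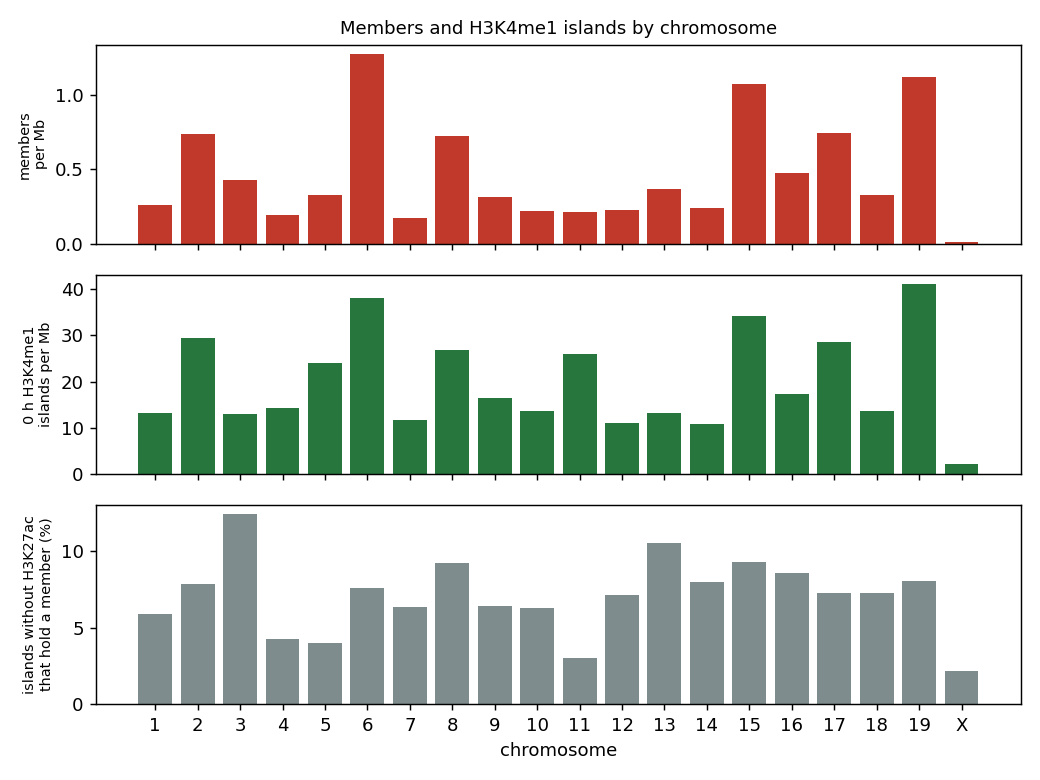
Silent primed regions per Mb (top), 0 h H3K4me1 islands per Mb (middle) and the share (%) of H3K4me1 islands without empty-vector H3K27ac that overlapped a silent primed region (bottom), by chromosome (x axis). Chromosomes 6, 15 and 19 had the most regions per Mb (1.27, 1.07 and 1.12) and the most H3K4me1 islands per Mb (38.1, 34.2 and 41.0).

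Genes of the adipocyte programme had silent primed regions at about the share of all genes. Over all 22350 protein-coding genes, 5.07% had such a region within 50 kb of a start and 21.2% had an acetylated region there. A region counted if any part of it lay within 50 kb, so its centre could lie farther, as at Tbl1xr1 (51.5 kb). Of 19 adipogenic regulators, 1 (5.26%) had a silent primed region and 10 (52.6%) had an acetylated one. That gene was Pparg, the master regulator, with 2 silent primed regions and 2 acetylated regions. The stronger of its silent regions, centred 42.9 kb from a start, was 6600 bp long and had H3K27ac in both SETD5-cell lists at 0 h (3800 and 3400 bp) and in neither at 48 h. Of 27 mature adipocyte genes, 1 had silent primed regions, Gpd1 (glycerol-3-phosphate dehydrogenase), with 2, while 8 had acetylated regions.

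Of 34 genes of Wnt signalling, which restrains adipogenesis, 5 (14.7%) had a silent primed region. Of 27 actin and YAP–TEAD genes 5 (18.5%) did, beside the 5.07% of all genes. Acetylated regions were also near a higher share of these genes, 29.4% and 33.3%, beside 21.2% of all genes. The Wnt genes with a silent primed region were on chromosomes 2, 6 and 15, all with 20 or more H3K4me1 islands per Mb. The actin and YAP–TEAD ones were on chromosomes 6, 10, 15 and 16, of which 10 and 16 had fewer. The part of the chromosome in these shares was not tested. Wnt1 and Wnt10b shared 2 regions. The stronger, 7600 bp long and centred 1.09 kb from a start of Wnt1, had H3K4me1 at 48 h, with a 5800 bp island. It had no H3K27ac in SETD5 cells. Wnt2 also had 2. Mkl2, a coactivator of serum response factor, had 4, its paralogue Mkl1 had 2, and Ctgf, a matricellular YAP–TEAD target, had 1, centred 1.72 kb from its start and without H3K4me1 at 48 h. Of 35 extracellular matrix genes, 5 had a silent primed region and 20 an acetylated one. The named ones were Thbs2, Lama2 and Vcan, each with 1, and H3K4me1 was called at 48 h at that of Thbs2 only. Of 35 genes of the TGF-beta and BMP pathway, 2 had such regions, with 3 at Ltbp1, a latent TGF-beta binding protein, and 1 at Tgfbr3, a co-receptor. Of 20 preadipocyte and anti-adipogenic genes, Foxc2 and Tcf7l1 had 1 each, and of 13 corepressor genes Tbl1xr1 had 1. None of 13 AP-1 genes, 24 glucocorticoid and cyclic AMP responsive genes, 18 neuronal markers or 12 blood markers had one, while 5 AP-1 genes and 10 hormone-responsive genes had acetylated regions. The lists are short, several genes share regions, and no test of a list was made.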

How the data were processed

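ChIP-seq islands from 16 libraries of 3T3-L1 cells were used. Per the labels and the study's methods, the authors used ELAND or Bowtie2 for alignment (mm9), and SICER for the islands of H3K27ac, SETD5-V5 and SETD5. The methods do not name the caller of H3K4me1, and the study's reporting summary gives SICER2. Each library has a list of its own, and whether an input library was used is not stated. The deposited score has no header and was taken, by its range, to be the caller's enrichment value. It was used only to rank islands within a list. Islands were multiples of 200 bp. The study gives tool versions, which were not used here, and library totals, which were used only to compare depth between libraries. An absent island means below the caller's threshold.

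The members and gene lists were chosen with earlier results of these data known. Overlap was 1 bp or more, and its code was tested on simulated islands and against bedtools 2.31.1 on 240 list pairs, of which 0 differed. Shares were compared with those of all 34648 SETD5-V5 islands of replicate A at 6 h, without a test where a group had 1 library, and otherwise by exact two-sided permutation over libraries (scipy 1.17.1). Islands ended within the chromosomes of NCBIM37, which is mm9, and genes came from GENCODE M1. Older symbols were matched through RefSeq synonyms, and 1 gene of the lists was not matched. Sequences were read with pysam 0.24.0. Named regions were the 5 highest-scoring, the 3 highest-scoring in each of 4 states, the 5 genes nearest to most regions, and in each gene list up to 3 genes with most regions within 50 kb. Printed windows were 4 of the highest-scoring and 1 from each of those states, a split made after the values were seen. Alternatives were the overlap, score, length and distance limits, the base replicate, equal list sizes, the replicates left out, the replicate block and the chromosomes used.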

Additional observations from a re-analysis of the deposited data

How the results depend on the processing

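The number of silent primed regions was 458 with an overlap of 50%, 151 with islands at or above the median score of their list, 426 on chromosomes with under 20 H3K4me1 islands per Mb, an alternative chosen after seeing the data, and between 2289 and 2786 with the lists of 1 replicate letter only. With these settings fewer or more islands can meet the rule. H3K4me1 at 48 h was on 36.9% of regions with the 50% overlap, 37.7% with the median score and 56.1% on the sparse chromosomes. H3K27ac in SETD5 cells at 0 h fell to 6.40%, 0.469% and, with lists of equal number, 5.67%, and was 21.8% on the sparse chromosomes. At 48 h it was 7.59%, 1.75%, 9.77% and 27.3% under the same 4 settings. With 1 letter only, it ranged from 19.5% to 20.1% at 0 h and from 20.7% to 24.2% at 48 h. Endogenous SETD5 at 6 h was on 0.341% with the median score and on 1.65% to 2.58% with 1 letter only.

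The difference between 48 h and 0 h in SETD5 cells stayed positive under each alternative run, from 0.574 points without replicate B to 5.73 points with replicate B as the base, and was 4.72 without replicate A. The difference between SETD5 and empty-vector cells in lists the choice did not use stayed positive under the settings fixed at first, at 2.55 points with the median score at the least, and was 23.8 points on the sparse chromosomes. It reversed to -4.42 points when regions were chosen by the SETD5-cell lists instead, and was 0.605 points with both sets of lists and 9.01 with neither, all 3 added after seeing the data. No p could pass a threshold in this design. With a replicate block the differences were 4.91 and 15.3 points with p = 0.500 by exact sign changes, the smallest that 2 pairs allow. The deviations of same-lettered libraries correlated at 0.00211 and 0.0430 over 34648 islands. Island calls from 2 libraries per group cannot show whether same-lettered libraries shared a batch.

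The excess of H3K4me1 at 48 h on silent H3K4me1 islands at silent primed regions, over those without SETD5-V5, was 20.8 points. It was 14.3 for islands up to 1000 bp, 15.7 against 48 h islands at or above the median score and 17.6 on the sparse chromosomes. In 4 equal classes of the 0 h score, added after seeing the data, it was 16.5, 16.0, 15.3 and 9.39 points from lowest to highest. Counting motif matches per kb over whole islands turned the ratio of silent primed regions to all islands from 0.951 to 1.07 for TEAD, from 1.12 to 0.830 for CREB and from 1.02 to 0.961 for the E-box. The cause of these shifts was not tested. Island lists without depth limit every absence to the caller's threshold.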
